A study of Mus musculus with 8 samples.

Results

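The genes described here were 10 cytokines and receptor chains of the IL-1 and IL-6 families, chosen by name: Il33, Il6, Lif and Il11 as ligands, and Il1r1, Il1rl1, Il1rap, Il6st, Lifr and Osmr as receptor chains. Of these, 9 had a row among the 12589 genes of the RNA-seq table, and Il11 had none, so that its level was not analysed here. RNA-seq was performed on 8 samples of a murine spleen stromal cell line that expresses YFP (mSSC-YFP), 4 treated for 48 h with BMS493, an inverse agonist that inhibits RA-signaling, and 4 with its vehicle DMSO. The methods name 1 μM BMS493 for stromal cultures. Both groups were grown in DMEM with fetal bovine serum, were the same line and differed in the treatment alone as far as the labels say. The study asked what RA-signaling inhibition does to stromal cells that support chronic lymphocytic leukemia. The table gives that contrast only as the authors' own comparison, which was not used, so the levels below describe this line over both treatments together. Each level is the deposited mean over all samples, with no value per sample, so that neither an SD nor a test between genes can be given. For the same reason the table does not show the depth of each library, of which the methods give an average alone.

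IL-1 family cytokines act on pairs of related receptor chains. Il1r1 binds IL-1, Il1rl1 (also named ST2) binds IL-33, and both signal together with the accessory chain Il1rap through Myd88 and the Irak kinases. Most IL-6 family cytokines share the signal-transducing chain gp130, encoded by Il6st. It pairs with Lifr for LIF, with Osmr for oncostatin M, and with an IL-6- or IL-11-specific chain for those cytokines. Janus kinases and Stat3 carry this signal, and Socs3 limits it. Stromal fibroblasts are a well-known source of IL-6, LIF and IL-33 for neighbouring immune cells.

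The labelled cell type was checked against marker genes. Of 13 stromal markers 10 had a row (not Cxcl13, Madcam1 and Tnfsf11), with levels from 5.24 for Pdgfra to 13.3 for Col1a1 on the deposited log2 scale. None of 8 haematopoietic markers had a row, Ptprc included. The endothelial markers with a row were Pecam1 at 0.47 and Kdr at 2.83 (2 of 4). Of 4 epithelial markers 3 had a row (not Epcam), with Krt18 at 0.31, Krt8 at 1.55 and Cdh1 (E-cadherin) at 8.03, the level of Vcam1. Per kilobase of exon, the scale used below, Cdh1 was at 5.83, above Vcam1 at 4.88. On that scale 9 of the 10 stromal markers with a row lay above the median of 12360 genes (2.85), and Pdgfra, at 1.92, lay below it. Cdh1 was thus the only epithelial marker at a high level, and whether the samples held any epithelial cells was not tested. A missing row was not read as absence of the transcript. In these bulk samples a low level can come from few cells with the transcript or from little RNA per cell, which cannot be told apart.

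Among the members, transcripts of Il6st and Lif were the most abundant, and per length those of Lifr, Il6 and Il1rap the least. With no length, Il33 (3.06) lay below Il1rap (3.26). Levels of different genes were compared per length: log2 of the exon length in kilobases was subtracted from the deposited log2 mean, using all annotated exons of the gene. On this scale the median of 12360 genes was 2.85. Only Il6st and Lif, 2 of the 9 members, lay above it, and the median member stood at percentile 26.5 of all genes. Here and below, all genes are those with a row. Genes without a row, Il11 among them, do not enter the percentiles.

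**Figure D1:**
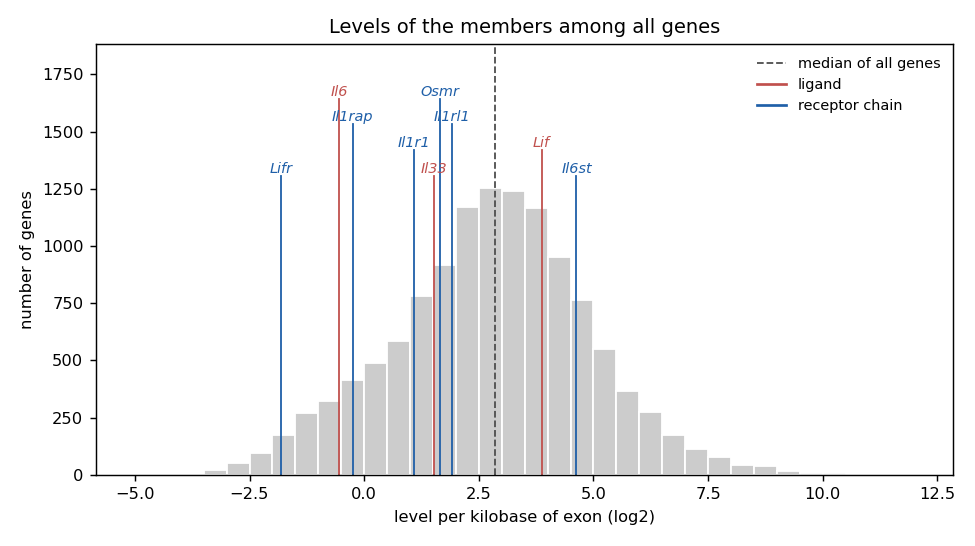
Histogram of the level per kilobase of exon (log2) over 12360 genes, with a line at each of the 9 members with a row, coloured by role, and a dashed line at the median of all genes (2.85). Il6st (4.63) and Lif (3.87) lie to the right of the median and the other 7 members to its left.

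Il6st lies on chromosome 13 from 112464070 to 112510086 (GRCm38). Its deposited log2 mean of 8.10 corresponds to 274 normalized CPM (reads scaled to a common library total), at percentile 95.3 of all genes. Its exons cover 11.10 kb, and per kilobase of exon its level was 4.63, at percentile 81.8. It was the highest of the members per kilobase of exon, per kilobase of the longest transcript and with no length. With the coding length, Lif took its place.

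The partner chains of gp130 were lower than gp130 itself. Osmr, the oncostatin M receptor chain, lies on chromosome 15 from 6813577 to 6874969 and had a level of 1.65 per kilobase of exon (5.25 as deposited). Its level was 7.88-fold below that of Il6st, or 4.57-fold with the longest transcript as length. Lifr, the LIF receptor chain, lies on the same chromosome from 7090614 to 7197489. Its level of -1.81 (1.62 as deposited) was the lowest of the members and stood at percentile 1.89 of all genes. Il6st was thus 86.8-fold above Lifr, and from 86.8-fold to 106-fold over the 3 lengths tried. Osmr exceeded Lifr 11-fold per kilobase of exon and 21.8-fold per kilobase of the longest transcript. The order Il6st, Osmr, Lifr was the same with each of the 3 lengths.

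The remaining receptor chains of the family were read from a list of 8 genes, 6 of which had a row. Il6ra, which binds IL-6, had a level of -0.47 and Il11ra1, which binds IL-11, one of 1.64. The level of Il11ra1 is uncertain because mouse has near-identical copies of this gene and uniquely mapped reads were counted. Il27ra, a chain for IL-27, was at -1.76. Cntfr and Il31ra had no row. Il6st therefore exceeded every other chain with a row, by 7.88-fold at the least per kilobase of exon.

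Lif had the highest level of the ligands. Lif, on chromosome 11 from 4257557 to 4272514, had a level of 3.87 per kilobase of exon, at percentile 70.5 of all genes. Its deposited log2 mean was 6.0, or 63.8 normalized CPM. Il6 lies on chromosome 5 from 30013114 to 30019981. It had the lowest deposited mean of the members, 0.74, or 1.67 normalized CPM, at percentile 5.09 of all genes. Per kilobase of exon its level was -0.54. Lif transcripts were 21.3-fold above those of Il6 with this length and 39.7-fold above with the coding length. Of 10 IL-6 family ligands and related secreted subunits 4 had a row. Clcf1, a ligand of the ciliary neurotrophic factor receptor, followed Lif at 3.11, also above the median of all genes. Lif exceeded it by only 1.70-fold to 2.15-fold over the lengths tried. Ctf1 (cardiotrophin-1) was at 1.09. Osm, Cntf, Il27, Ebi3 and Il31 had no row, and neither had Il11.

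Per kilobase of exon Lif was second and Lifr last of the 9 members, with Lif 51.6-fold above Lifr. This ratio was 49.9-fold with the longest transcript and 112-fold with the coding length.

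**Figure D2:**
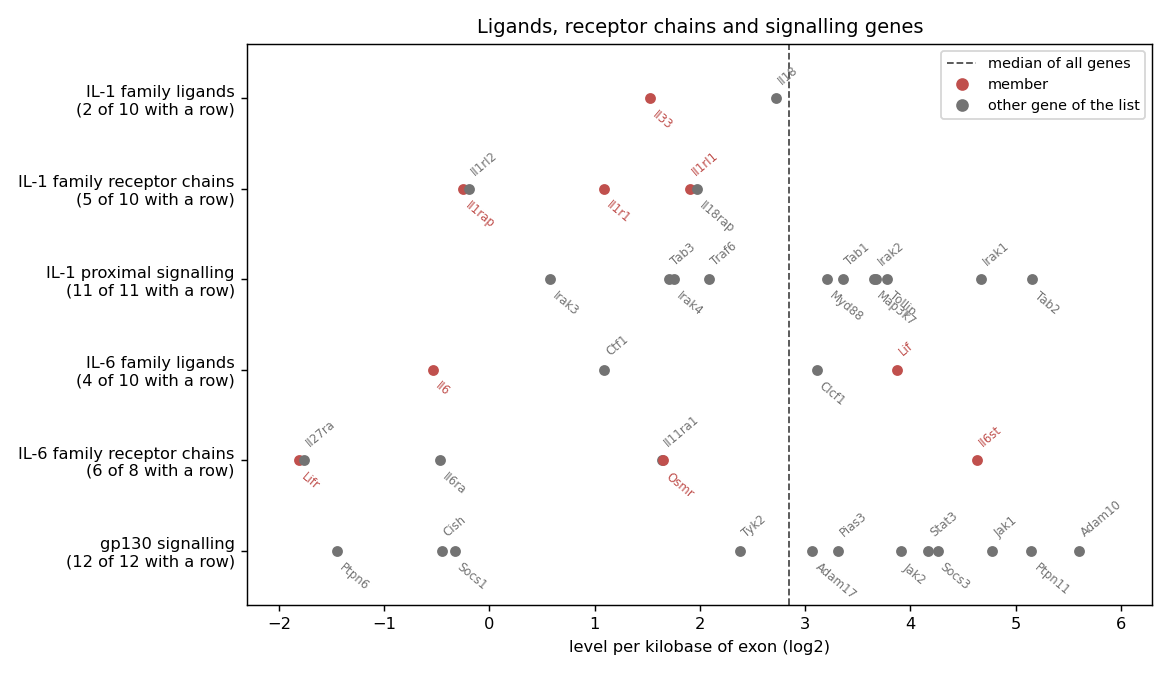
Level per kilobase of exon (log2) of every gene with a row in 6 lists of ligands, receptor chains and signalling genes, with members in red, other genes in grey and a dashed line at the median of all genes (2.85). Il6st and Lif are the only members right of the line. Of the signalling genes, 7 of 11 for IL-1 and 8 of 12 around gp130 lie right of it. By definition, as many of all genes lie right of the line as left of it.

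The IL-1 receptor chains were closer to each other. Il1rl1, the IL-33 receptor chain, lies on chromosome 1 from 40429570 to 40465415 and had a level of 1.91 per kilobase of exon, at percentile 31.9. Il1r1, on the same chromosome from 40225080 to 40317257, was at 1.09 and percentile 20.7. Il1rl1 exceeded Il1r1 by 1.77-fold to 2.11-fold over the 3 lengths. Il1rap, on chromosome 16 from 26581704 to 26730117, was at -0.25 and percentile 9.36. Of the members it moved most between all exons and the longest transcript. Its exons cover 11.36 kb in all, whereas its longest transcript has 4.52 kb, and with the latter its level was 1.08. Il1rl1 exceeded Il1rap by 2.32-fold to 4.48-fold, and Il1r1 exceeded it by 1.10-fold to 2.53-fold. Gene-level values do not separate membrane-bound from soluble forms, which are known for Il1rl1, Il1rap and Il6st.

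Il33, a nuclear alarmin and the ligand of Il1rl1, lies on chromosome 19 from 29925114 to 29960718. Its level was 1.53 per kilobase of exon, at percentile 26.5, and its deposited mean was 3.06. The level of the ligand was below that of its receptor chain, with a log2 difference of -0.39 that ran to -0.58 over the 3 lengths. On the deposited scale, where the longer Il1rl1 stood at 4.70, the difference was -1.64. Of 10 IL-1 family ligands Il18 was the other one with a row, at 2.72. Il1a, Il1b and the receptor antagonist Il1rn had no row. The genes for IL-1 processing and IL-18 binding in the list, Casp1, Nlrp3, Pycard and Il18bp, had no row either (0 of 4).

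**Figure D3:**
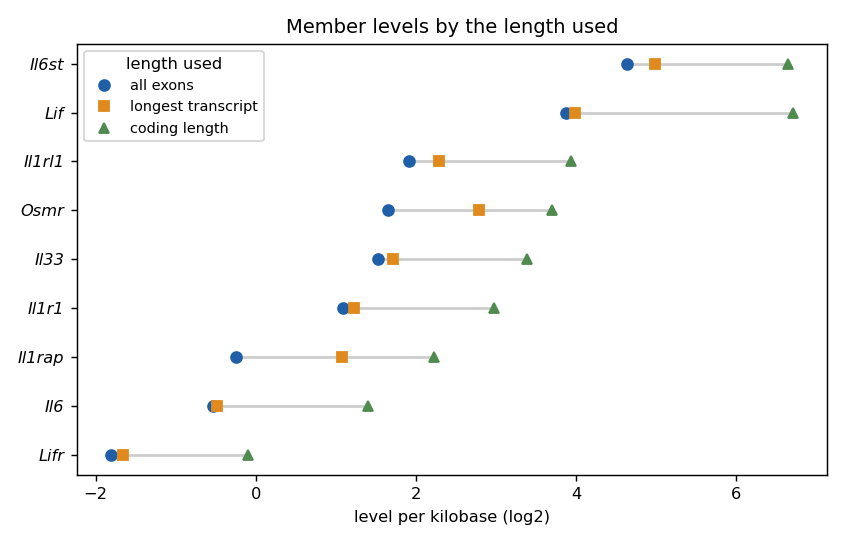
Level of each of the 9 members (log2) per kilobase of all exons (circles), of the longest transcript (squares) and of the longest coding sequence (triangles), joined by a grey line. Lifr, Il6 and Il1rap stay lowest with each length, while Il6st and Lif change places with the coding length, and Il1rl1 and Osmr with the longest transcript.

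Several members are neighbours in the genome. Il1r1 and Il1rl1 belong to a cluster of 6 receptor genes that spans 478 kb of chromosome 1, from 40074079 to 40551705. In it Il18rap, the accessory chain of the IL-18 receptor, was at 1.97 and so within 0.14 of Il1rl1 on the log2 scale with each of the 3 lengths. Il1rl2, the IL-36 receptor chain between Il1r1 and Il1rl1, was at -0.19. Il1r2 and Il18r1 had no row, the latter starting 137 bases after the end of Il1rl1. Osmr and Lifr are next to each other among protein-coding genes, 216 kb apart, and yet differed by 3.46 on the log2 scale. On the other side of Osmr, Rictor was at 1.80. Osm lies next to Lif at 16.5 kb and had no row. Beside Il33, Ranbp6 was at 1.72, and beside Il6, Dnajb6 was at 1.74 and Tyms at 3.37.

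The signalling genes listed for the receptors of each family were all in the table. Of 11 genes of IL-1 signalling, inhibitors included, 11 had a row, with a median level of 3.36, and 7 lay above the median of all genes. Tab2, an adaptor of the kinase Map3k7, was highest at 5.16 and Irak3, an inhibitory member of the Irak family, lowest at 0.58. Myd88 was at 3.21, Irak1 at 4.67 and Irak4 at 1.75. Of 12 genes around gp130, 12 had a row, with a median of 3.61, and 8 lay above the median of all genes. Adam10, a protease that sheds receptor ectodomains, was highest at 5.60 and the phosphatase gene Ptpn6 lowest at -1.45. Jak1 was at 4.78 and Jak2 at 3.91. Stat3 was at 4.17. Socs3, the feedback inhibitor that binds gp130, was at 4.26 and 24.1-fold above Socs1. With the exception of Il6st and Lif, the members lay below the median of either signalling list.

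The upstream sequences of the most abundant member and of the ligand with the lowest level are shown because they differ in base composition. They are the 250 bases before the RefSeq start on GRCm38.p6, 5′ to 3′ on the plus strand, for Il6st at chr13:112463820-112464069 and for Il6 at chr5:30012864-30013113. Capitals mark CpG dinucleotides in both and, in Il6, also a match to a 10-base NF-kappaB motif.
Il6st: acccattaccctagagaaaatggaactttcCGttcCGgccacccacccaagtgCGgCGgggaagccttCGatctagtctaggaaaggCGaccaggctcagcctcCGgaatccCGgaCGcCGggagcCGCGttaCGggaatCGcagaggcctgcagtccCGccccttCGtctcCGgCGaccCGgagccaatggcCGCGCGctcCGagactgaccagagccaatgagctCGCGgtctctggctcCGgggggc
Il6: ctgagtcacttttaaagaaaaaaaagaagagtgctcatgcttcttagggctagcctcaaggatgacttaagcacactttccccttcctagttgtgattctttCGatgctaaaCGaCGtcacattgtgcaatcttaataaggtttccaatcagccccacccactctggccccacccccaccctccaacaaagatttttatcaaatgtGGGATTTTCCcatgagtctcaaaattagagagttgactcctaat

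The Il6st window held 26 CpG dinucleotides and 66.0% GC, and the Il6 window 3 and 42.8%. Over 32851 windows of this length before RefSeq starts, the medians were 6 CpG dinucleotides and 52.4% GC. The match in Il6, GGGATTTTCC, lies from 44 to 35 bases before the start. The motif searched has these letters with the fifth left free. All 4 motifs named here were searched on both strands together. This one was in 0.356% of all windows and in no window of another member. TATAAA, on either strand, was in both windows of Il33 and in no other of the members' 15 windows, against 12.4% of all windows. TTCNNNGAA, a core of STAT motifs, was in none of the members' windows, against 7.02% of all. AGGTCA, a half-site of nuclear receptor motifs, was in 1 window each of Il1rl1, Lifr and Il11, against 14% of all windows. No member's window held more than 1 of these 4 motifs, and no match says only that these letters are missing from these 250 bases.

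CpG number did not order the members by level. The window with the most CpG dinucleotides, 43, was 1 of 2 windows of Lifr, the member with the lowest level, and the single window of Il1rap held 30. Lif, second in level, had 6. Il1rl1 had 2 windows with 0 and 3, and those of Il1r1 held 3 and 7. Osmr had 18, and Il33 had 4 in each of 2 windows.

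**Figure D4:**
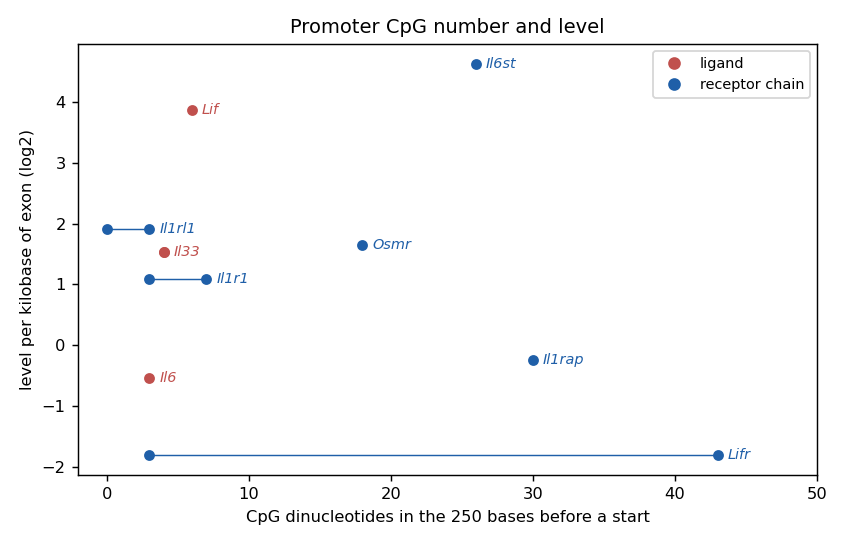
Number of CpG dinucleotides in the 250 bases before each RefSeq start (x axis) against the level per kilobase of exon (log2, y axis) of the 9 members with a row, coloured by role; lines join the 2 starts of a gene. Il6st and Lifr, at the highest and lowest levels, both have a window with many CpG dinucleotides, 26 and 43.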

How the data were processed

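RNA-seq of 8 stromal samples, 4 with DMSO and 4 with BMS493, was read from 1 table the authors deposited. Per the methods and the submitters' processing notes, reads passed FastQC, were aligned to mm10 with STAR 2.3.0e, counted on Ensembl genes with Rsubread when uniquely mapped, normalized with TMM factors and compared with limma. The mean log2 normalized expression over all samples, as deposited with decimal commas, was the column used. Its header names no group, and it was taken as the mean over both. Its values raised from log2 sum to 989369, close to the total of a CPM scale, and were read as CPM (a geometric mean over samples). The other columns hold the authors' own comparison of BMS493 with DMSO (log2 fold change, t, p-value and adjusted p-value) and were not used. The limma test planned for values of single samples could therefore not be run.

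Symbols were matched to GENCODE M21 (GRCm38, the assembly also called mm10), 11765 by symbol and 603 through 1 RefSeq synonym, which gave 12360 genes (98.2%) an exon length. The level per length is the deposited log2 mean minus log2 of the length in kilobases. Percentiles are shares of genes below a value. Upstream windows came from RefSeq on GRCm38.p6, and their strand was checked against GENCODE transcripts (15 of 15 windows). The scripts were tested on simulated data. Python 3.11.15, numpy 2.4.6, pandas 2.3.3 and matplotlib 3.10.9 were used. All members were described, with all ligands and receptor chains of fixed lists that had a row, genome neighbours and, of the signalling genes, the highest and lowest; the other signalling genes named were chosen after their values were seen. The members and lists were chosen with earlier results of these data known. Genes whose pattern over samples resembles that of a member were not sought, since no pattern over samples was at hand. Some genes of the lists are not reported here and were left out of the list counts.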

Additional observations from a re-analysis of the deposited data

How the results depend on the processing

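No paired analysis was possible because the column used holds 1 mean over all samples; for the same reason leaving out each sample, another pseudocount and a filter for the comparison of BMS493 with DMSO were not run. The number of members above the median of all genes was 2 per kilobase of exon, with the longest transcript, with the coding length and among genes with a deposited log2 mean of at least 1, and 3 with no length. The median percentile of the members was 26.5, and it was 30.2 with no length, 23.4 with the longest transcript, 29.0 with the coding length and 22.8 among genes with a mean of at least 1, where Il6 drops out. The median level of the receptor chains minus that of the ligands was -0.16 per kilobase of exon and turned to 1.17 with no length and 0.05 with the longest transcript. It was -0.05 with the coding length and -1.33 among genes with a mean of at least 1, so these data give no direction for it. With no spread between samples known, any change at the printed precision was counted as a move. The mean joins both treatments, so a member that differs between them has a level that belongs to neither group.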
